A study of Mus musculus with 6 samples.

Results

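The 39 genes described here are a list of macrophage lineage genes: transcripts that are typical of macrophages, or of blood-derived cells in general. They were taken as the rows of the count table whose symbol equals a listed name, and all 39 of 39 were found among its 23867 genes. The table holds 6 bulk RNA sequencing libraries of mouse chondrocytes, the resident cells of cartilage. In 3 libraries the genotype is MFN2wt. The other 3 carry the genotype MFN2Col2a1-/-, a label that joins Mfn2, the mitochondrial outer-membrane fusion gene mitofusin 2, with the cartilage collagen gene Col2a1, and their columns are named CRE1, CRE2 and CRE3. They are called knockout below. No treatment or time is labelled. The promoter of a Cre recombinase, the age of the mice and whether libraries came from separate animals or from pools: not given in the sources used here. P-values therefore reflect the spread among these 6 libraries alone, which may be technical.

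Macrophages are phagocytes that reach or seed tissues from the blood-forming lineage, depend on the receptor for colony stimulating factor 1, and are built by transcription factors such as PU.1 (Spi1). They carry pan-leukocyte proteins (CD45, CD53, coronin), integrins, an oxidase that makes superoxide, lysosomal proteins, and scavenger receptors that differ between tissues. In a joint they line the synovium and clear debris. Chondrocytes are not blood-derived, so transcripts confined to blood-derived cells mark other cells in such a preparation. In bulk RNA, fewer cells of a type and less of its RNA per cell cannot be told apart.

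Of the 39 genes, 34 had enough counts for the test, and 34 of these 34 were lower in the knockout, at an adjusted p of at most 0.000913 (edgeR quasi-likelihood test, Benjamini-Hochberg over 15028 genes). Of all 15028 tested genes, 32.1% were called lower and 30.7% higher. No tested member was called higher by edgeR, DESeq2 or limma-voom, nor at an unadjusted p under 0.05 in edgeR. In each of the 34 genes the 3 knockout libraries lay below the 3 wild-type libraries, which was so for 34.8% of all tested genes. The members tested fell by a median of 3.77 on the log2 scale, against −0.021 for all tested genes. A fall of at least 8-fold was called for 24 of the 34, against 2.8% of all tested genes. The remaining 5 genes (Fgr, Vsig4, Timd4, Lyve1 and Ccr2) were at or near the counting floor in both groups.

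The transcripts of the 39 genes together took 0.549% ± 0.000615 of all counts in the wild type and 0.0957% ± 0.0023 in the knockout (SD, n = 3 libraries per group), 5.74-fold less. Leaving out Gpnmb, which supplied 23.2% of the members' counts in the wild type and 55.8% in the knockout, the share went from 0.422% ± 0.00214 to 0.0423% ± 0.000707, 9.97-fold less. Levels below are CPM, counts scaled to one common library total after trimmed-mean (TMM) normalization. Fold changes are knockout against wild type on the log2 scale with their standard error (SE).

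**Figure D1:**
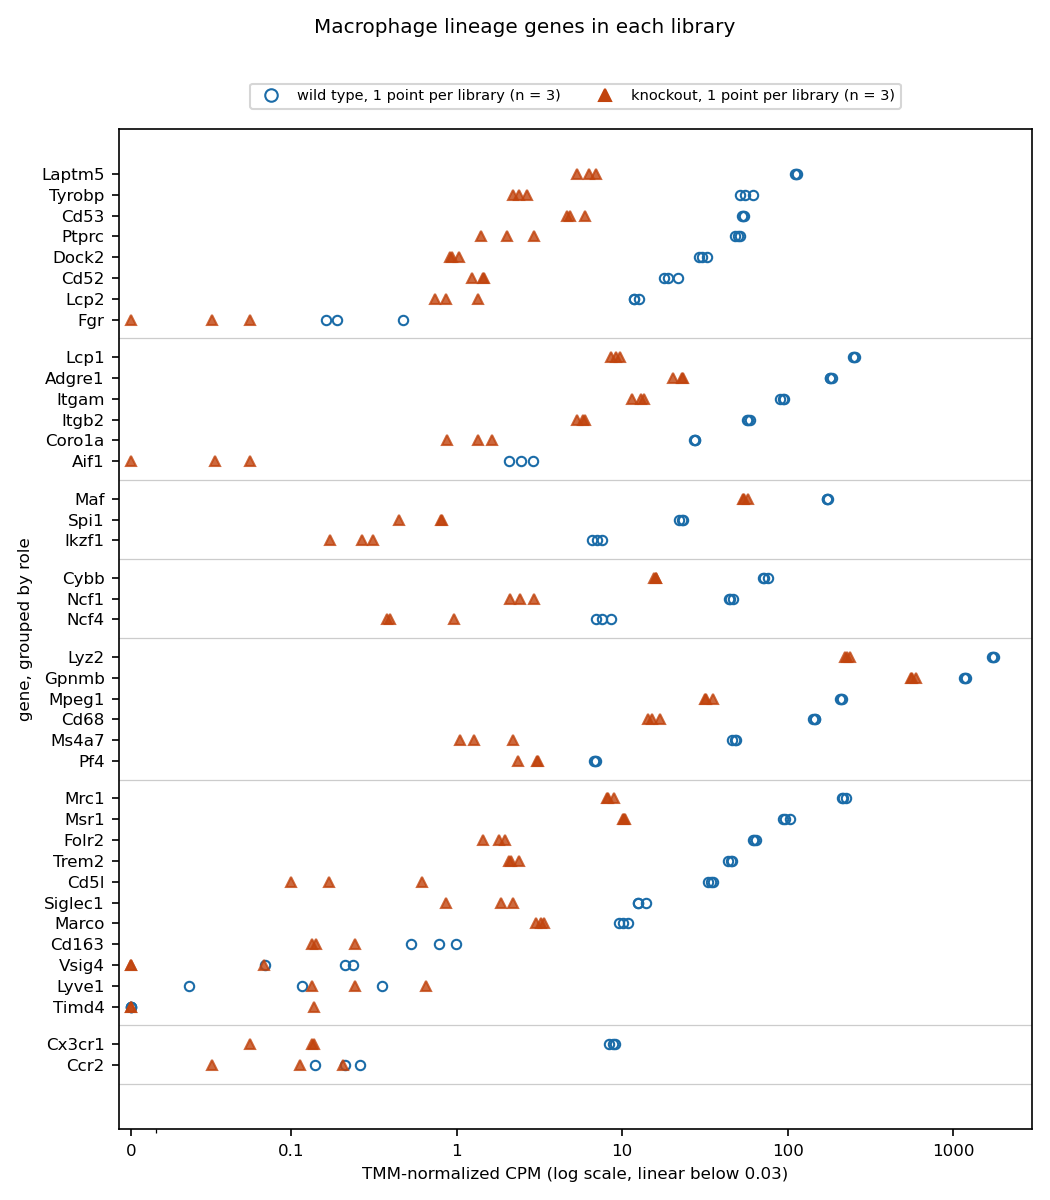
Level of each of the 39 genes in each library, grouped by role, in TMM-normalized CPM on a log axis that is linear below 0.03, where open circles are wild-type libraries and triangles are knockout libraries. The knockout points lie to the left of the wild-type points in the 34 tested genes, by distances that range from Gpnmb (574 against 1184 CPM) to Cd5l (0.296 against 34.3 CPM), while Lyve1, Timd4 and Ccr2 overlap near 0.

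Before the values, 6 promoters show the regulatory sequence next to which the results stand: Cd5l and Cx3cr1 (the deepest falls), Laptm5 and Mrc1 (falls on either side of the core median used below), and Gpnmb and Pf4 (the shallowest). They are RefSeq sequences of the build GRCm38.p6, which is not the build GRCm39 named in the submitters' processing notes, and cover the 250 bases before the annotated start, in the direction of the gene. Capitals mark a match on either strand to GAGGAAGT or its shorter core GAGGAA, the letters bound by PU.1, to TGTGGT (RUNX factors), TTGCNNAA (C/EBP factors) or TGCTGAC (MAF factors). The shorter core lies inside the longer motif and was added after the matches had been seen.
Cd5l, chr3:87357631-87357880, strand +: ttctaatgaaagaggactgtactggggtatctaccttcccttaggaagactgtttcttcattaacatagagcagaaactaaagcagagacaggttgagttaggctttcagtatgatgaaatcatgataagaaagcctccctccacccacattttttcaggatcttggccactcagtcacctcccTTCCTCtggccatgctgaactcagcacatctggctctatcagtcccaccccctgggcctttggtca
Cx3cr1, chr9:120068297-120068546, strand -: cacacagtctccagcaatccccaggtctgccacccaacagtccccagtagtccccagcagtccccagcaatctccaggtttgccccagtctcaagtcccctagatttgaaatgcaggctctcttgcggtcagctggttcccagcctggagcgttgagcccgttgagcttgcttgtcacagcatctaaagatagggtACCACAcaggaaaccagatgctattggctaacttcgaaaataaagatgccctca
Laptm5, chr4:130913066-130913315, strand +: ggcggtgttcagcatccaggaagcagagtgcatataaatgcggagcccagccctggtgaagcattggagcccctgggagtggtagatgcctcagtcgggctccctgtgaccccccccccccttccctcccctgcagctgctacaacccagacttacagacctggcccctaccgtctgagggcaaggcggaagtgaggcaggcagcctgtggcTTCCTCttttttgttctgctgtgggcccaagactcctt
Mrc1, chr2:14229164-14229413, strand +: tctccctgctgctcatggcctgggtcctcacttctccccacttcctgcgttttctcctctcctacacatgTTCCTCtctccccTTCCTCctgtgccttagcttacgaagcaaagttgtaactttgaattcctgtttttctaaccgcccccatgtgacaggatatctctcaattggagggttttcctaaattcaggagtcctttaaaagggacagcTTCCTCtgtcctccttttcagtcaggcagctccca
Gpnmb, chr6:49036268-49036517, strand +: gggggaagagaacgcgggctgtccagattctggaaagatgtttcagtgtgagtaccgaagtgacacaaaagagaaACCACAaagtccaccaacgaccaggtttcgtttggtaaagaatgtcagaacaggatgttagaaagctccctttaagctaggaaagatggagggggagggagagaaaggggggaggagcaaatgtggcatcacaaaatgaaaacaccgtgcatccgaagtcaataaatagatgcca
Pf4, chr5:90772185-90772434, strand +: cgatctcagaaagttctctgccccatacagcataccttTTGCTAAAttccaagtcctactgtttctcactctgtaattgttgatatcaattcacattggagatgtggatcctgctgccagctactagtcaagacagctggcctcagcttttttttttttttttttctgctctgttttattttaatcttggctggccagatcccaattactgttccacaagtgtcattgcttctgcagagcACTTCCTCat

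RefSeq promoter windows were found for 29 of the 39 genes, 35 windows in all. GAGGAA or its reverse complement occurred in 13 of the 35 windows (37.1%), against 23.3% of all 32851 windows of that length. The longer GAGGAAGT was found in 1 member window, that of Pf4, with its first base 10 bases before the start (2.9%, against 2.44% of all windows). TGTGGT was found in 6 member windows (17.1%, against 14% of all), TTGCNNAA in 2 (5.7%, against 9.56%) and TGCTGAC in 2 (5.7%, against 3.81%). The windows with GAGGAA belonged to genes that fell far, such as Cd5l and Aif1, and also to Marco and Pf4, which fell little. The Mrc1 window held GAGGAA at 3 places, 180, 167 and 35 bases before the start, and the Gpnmb window held TGTGGT 175 bases before it. The member windows had a median GC content of 46.8%, against 52.4% in all windows. These matches are letters in a window and not binding sites.

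As a yardstick, 10 members known to be confined to blood-derived cells were taken as a core: Ptprc, Laptm5, Cd53, Tyrobp, Lcp2, Dock2, Itgb2, Coro1a, Spi1 and Ikzf1. Their median log2 fold change was −4.48, a level of 4.47% of the wild type (22.4-fold lower). Their summed level was 429, 424 and 438 CPM in the wild-type libraries and 23.4, 25.9 and 27.8 CPM in CRE1, CRE2 and CRE3, so the groups lie far apart and the 3 knockout libraries lie close together. The core genes themselves ranged from −5.03 (Spi1) to −3.35 (Itgb2), a 3.2-fold spread of folds. Each member was then tested against the median fold of the core, leaving the gene itself out of the core where it was in it, in the same edgeR fit. Of 34 tested members, 29 differed from the core fold at an adjusted p under 0.05, 20 with a smaller fall and 9 with a larger fall. Nearly all genes of the table (98.5%) differ from that fold, so this count says little about the members. A fall larger than that of the core was called in 0.446% of all tested genes. The core was itself drawn from the members, so that share is no independent comparison for them. By more than 1.5-fold, 19 members differed (98% of all tested genes), 16 with a smaller and 3 with a larger fall. The core was not uniform: 6 of its 10 genes were among the 29 that differed, and 3 were among the 19.

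Of 7 tested genes of leukocyte signalling, 1 fell further than the core, 4 fell less and 2 did not differ from it, and 6 of the 7 are themselves core genes. Ptprc, which encodes the phosphatase CD45 on all leukocytes, stood at 49.9, 48.3 and 51.2 CPM in the wild type and at 1.41, 2.01 and 2.93 CPM in CRE1, CRE2 and CRE3. CRE3 was the highest and CRE1 the lowest of the knockout libraries, 2.08-fold apart, and both were far below the wild type. On the log2 scale Ptprc fell by 4.55 (SE 0.122, edgeR adjusted p = 2.89e-14). It did not differ from the other core genes (adjusted p = 0.419), except when CRE3 was left out (adjusted p = 0.0171, a difference of −0.37). Tyrobp, the signalling adaptor DAP12, fell from 56.2 ± 5.03 to 2.41 ± 0.233 CPM and Laptm5, a lysosomal protein of blood cells, from 113 ± 1.75 to 6.19 ± 0.805 CPM. Dock2, an activator of Rac that leukocytes need for migration, fell further than the core (−5.01, SE 0.108; difference −0.57, adjusted p = 0.000885), a call that was lost on log2(FPKM + 0.1) (difference −0.06, adjusted p = 0.617) and changed sign on log2(FPKM + 1). The tetraspanin gene Cd53 (−3.38, SE 0.0766), the adaptor gene Lcp2 (−3.64, SE 0.165) and Cd52, a small surface glycoprotein (−3.81, SE 0.129), fell less. Cd53 kept 9.6% of its wild-type level and Ptprc 4.25%, though both are known as leukocyte genes.

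Adhesion and cytoskeleton genes gave 2 larger and 3 smaller falls than the core among 6. Itgam and Itgb2 encode the CD11b and CD18 chains of the same integrin. Itgam stood at 95, 94 and 89.4 CPM in the wild type and 12.9, 11.5 and 13.6 CPM in the knockout (log2 fold change −2.88, SE 0.0599), and Itgb2 at 57.9 ± 1.19 and 5.68 ± 0.287 CPM (−3.35, SE 0.0627). Adgre1, which encodes the macrophage antigen F4/80, stood at 180, 180 and 186 CPM in the wild type and 20.3, 23.3 and 23.1 CPM in the knockout, 8.19-fold lower (−3.03, SE 0.0503). These 3 falls were smaller than that of the core by 1.61, 1.19 and 1.45 on the log2 scale, in the order named. Lcp1, the actin bundler L-plastin, fell 27.5-fold, from 252 ± 3.86 to 9.13 ± 0.625 CPM, and Coro1a, the actin regulator coronin 1A, fell 21.3-fold. Aif1, which encodes the calcium-binding protein IBA1, had 123, 103 and 90 counts in the wild type and 1, 2 and 0 counts in the knockout. That is 1.23% of the wild-type level, with a 95% counting interval (exact binomial) of 0.264% to 3.79%. Its larger fall than the core (adjusted p = 0.0293) was lost without CRE3 (adjusted p = 0.149) or without wild-type library 1 (adjusted p = 0.0554), and its fitted fold depends on the prior count.

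Among the transcription factors, Spi1 and Maf stood apart. Spi1, the gene of PU.1, stood at 22.1, 23.4 and 23 CPM in the wild type and at 0.447, 0.819 and 0.798 CPM in the knockout (log2 fold change −5.03, SE 0.138), 33.2-fold lower. It fell further than the other core genes (difference −0.59, adjusted p = 0.00488), a call that limma-voom did not make (adjusted p = 0.0538). Ikzf1, the lymphoid and myeloid factor Ikaros, went from 7.05 ± 0.526 to 0.25 ± 0.0709 CPM, 28.3-fold lower, and did not differ from the core (adjusted p = 0.235). Maf, a factor of macrophages that other cells also express, stood at 172, 173 and 175 CPM in the wild type and 57.7, 53.8 and 54.1 CPM in the knockout. The groups do not overlap, but the knockout kept 31.9% of the wild-type level (−1.65, SE 0.0393), against 3.02% for Spi1. At the core fold Maf would stand at 7.74 CPM, and its knockout level was 47.5 CPM above that.

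The oxidase that makes superoxide in phagocytes is assembled from membrane and cytosolic subunits, and its genes fell unequally. Cybb, the membrane subunit NOX2, stood at 76.2, 72.3 and 71 CPM in the wild type and 16.1, 15.6 and 16 CPM in the knockout, 4.6-fold lower (−2.20, SE 0.0516). The cytosolic subunit gene Ncf1 (p47phox) fell 18.2-fold, from 45.2 ± 1.37 to 2.48 ± 0.427 CPM, and Ncf4 (p40phox) fell 13.2-fold, from 7.67 ± 0.8 to 0.579 ± 0.333 CPM. Each of the 3 fell less than the core, Cybb by 2.28 on the log2 scale (adjusted p = 2.03e-16), Ncf4 by 0.75 (adjusted p = 0.0256) and Ncf1 by 0.31 (adjusted p = 0.013). The small differences of Ncf1 and Ncf4 were lost without CRE2 (adjusted p = 0.622) and without CRE3 (adjusted p = 0.428), in that order, and both were lost in limma-voom (adjusted p = 0.0588 and 0.0774). The knockout level of Cybb varied 1.03-fold between libraries and that of Ncf4 2.55-fold.

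Lysosomal and secreted products had the smallest median fall of the roles, a log2 fold change of −2.80 over 6 genes with 5 of the 6 falling less than the core. Of all tested genes 98.5% differed from the core and 0.446% fell further, so that count says little about this role. Lyz2, the lysozyme gene of macrophages, was the most abundant member per length in both groups, at 1777 ± 22.4 FPKM in the wild type and 201 ± 7.43 FPKM in the knockout (fragments scaled by gene length and library total, as the authors computed them). In CPM it stood at 1774, 1745 and 1725 in the wild type and 239, 227 and 221 in the knockout, 7.65-fold lower (−2.94, SE 0.0317). Its copy Lyz1, a near-identical gene whose reads may be assigned to Lyz2 or the reverse, had only 56 to 184 counts in the wild type and 12 to 76 in the knockout. Cd68, a glycoprotein of late endosomes, stood at 146, 143 and 146 CPM and fell to 14.3, 17 and 15.1 CPM. Mpeg1, a pore-forming protein of phagocytes, fell 6.37-fold, from 210 ± 3.64 to 33 ± 2.14 CPM.

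Gpnmb had the smallest fall of the 34 tested members. This gene encodes a transmembrane glycoprotein of lysosomes that bone-forming cells and other stromal cells also express. It stood at 1182, 1200 and 1172 CPM in the wild type and 596, 567 and 559 CPM in the knockout, 2.06-fold lower (log2 fold change −1.05, SE 0.0285, adjusted p = 3.67e-14, edgeR). At the core fold it would stand at 52.9 CPM, so 521 CPM of its knockout level lay above that. Pf4, the chemokine platelet factor 4, kept 41.1% of its level at a far lower abundance (6.85, 6.99 and 6.76 CPM against 3.06, 3.08 and 2.33 CPM). Ms4a7, a membrane protein of resident macrophages, behaved unlike both, with a 31.8-fold fall from 47.8 ± 1.21 to 1.5 ± 0.609 CPM. That fall exceeded the core's in edgeR (difference −0.52, adjusted p = 0.00597) but not in DESeq2 (adjusted p = 0.0624).

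The group of scavenger and other surface receptors, in which the secreted Cd5l was placed, covered the widest range (−6.89 to −1.66). Without Cd5l it ran from −5.17 (Folr2) to −1.66 (Marco), narrower than the −5.01 to −1.05 of lysosomal and secreted products. Cd5l, which encodes a protein that macrophages secrete to control lipid handling and survival, had the deepest fall of the 34 tested members. It had 1515, 1442 and 1436 counts in the wild type and 18, 6 and 3 in CRE1, CRE2 and CRE3, or 35.5, 34.2 and 33.2 CPM against 0.619, 0.17 and 0.0997 CPM. CRE1 held 6.2 times the level of CRE3, and all 3 lay far below the wild type. On the log2 scale Cd5l fell by 6.89 (SE 0.194, edgeR adjusted p = 5.69e-14), to 0.863% of the wild-type level. Without CRE1, Cd5l fell by 7.92. Cd5l fell 5.3-fold further than the core (adjusted p = 5.7e-07).

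The mannose receptor gene Mrc1 stood at 214, 215 and 225 CPM in the wild type and 8.9, 8.08 and 8.15 CPM in the knockout, 26.1-fold lower. Its fall exceeded that of the core by a small margin (−0.22 on the log2 scale, adjusted p = 0.00108), which was lost without CRE3 (adjusted p = 0.0823). The folate receptor gene Folr2 fell 36.3-fold, from 62.4, 61.4 and 64.8 CPM to 1.44, 1.95 and 1.8 CPM (−5.17, SE 0.0833). That was further than the core (difference −0.68, edgeR adjusted p = 1.12e-05). Trem2, a lipid-sensing receptor that signals through DAP12, fell 20.5-fold and did not differ from the core (adjusted p = 0.203). Its log2 fold change of −4.35 (SE 0.08) stands beside −4.54 (SE 0.0953) for its partner gene Tyrobp, and the difference between these genes was not tested. The class A scavenger receptor gene Msr1 fell 9.53-fold, from 97.9 ± 5.06 to 10.3 ± 0.134 CPM.

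Marco, Cd163 and Siglec1 fell less than the core. Marco, a second class A scavenger receptor gene, stood at 10.1, 9.57 and 10.8 CPM in the wild type and 3.02, 3.36 and 3.23 CPM in the knockout, 31.6% of the wild-type level (−1.66, SE 0.116). Cd163, the haemoglobin scavenger receptor gene, was scarce in both groups, with 42, 33 and 23 counts against 7, 5 and 4 (−2.15, SE 0.469, adjusted p = 0.000913). Siglec1, the sialoadhesin gene, had 534, 592 and 535 counts against 25, 65 and 66, so CRE1 stood lowest of the knockout libraries where it was highest for Cd5l.

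The chemokine receptor gene Cx3cr1, which marks resident macrophages and patrolling monocytes, had 385, 353 and 380 counts in the wild type and 4, 2 and 4 in the knockout. It kept 1.25% of the wild-type level, with a 95% counting interval of 0.579% to 2.24%, and its log2 fold change was −6.32 (SE 0.24), below that of the core by 1.84 (adjusted p = 0.000103). Ccr2, the receptor of inflammatory monocytes, had 9, 11 and 6 counts in the wild type and 6, 4 and 1 in the knockout and was not tested. Among the other untested members, the kinase gene Fgr had 8, 20 and 7 counts against 0, 2 and 1, a ratio of 10.9% with a 95% counting interval of 2.28% to 36.8%. The complement receptor gene Vsig4 had 9, 10 and 3 counts against 2, 0 and 0, and Timd4, a receptor for dying cells, had 0, 0 and 0 against 4, 0 and 0. Lyve1, a hyaluronan receptor gene shared with lymphatic endothelium, had 1, 15 and 5 counts against 7, 23 and 4. When genes with few counts were kept in the test, only Fgr of these 5 was called (−3, SE 0.961, adjusted p = 0.0086). Differences in the other 4 were not detectable at this depth.

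**Figure D2:**
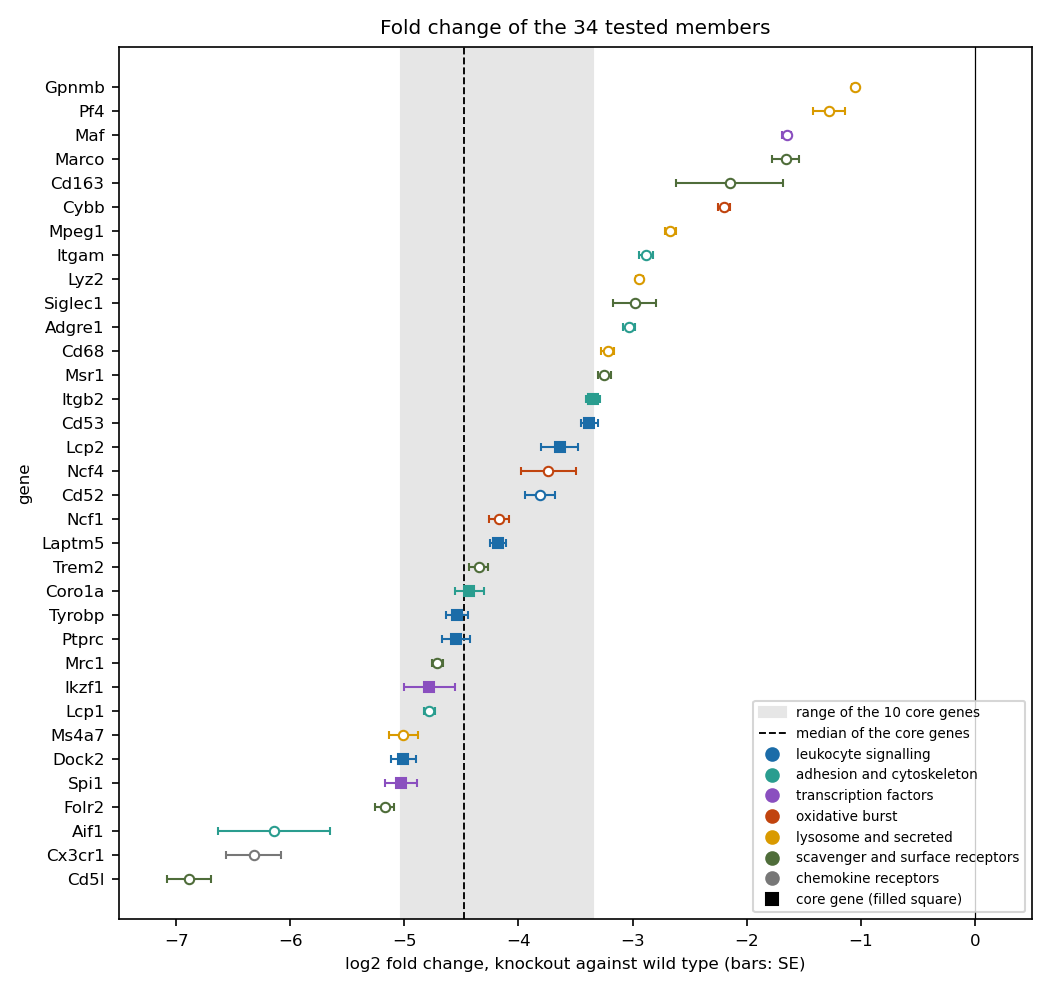
Log2 fold change of the 34 tested members, knockout against wild type, with bars of 1 SE, coloured by role, where the dashed line is the median of the 10 core genes (−4.48), the grey band is their range (−5.03 to −3.35), and filled squares are core genes. The members run from −6.89 (Cd5l) to −1.05 (Gpnmb), and 4 members lie below and 13 above the band.

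The folds of the 34 members spanned 57.5-fold, from Cd5l to Gpnmb. Of the 24 tested members outside the core, 7 lay within the range of the core folds, 13 above it (Gpnmb, Pf4, Maf, Marco, Cd163, Cybb, Mpeg1, Itgam, Lyz2, Siglec1, Adgre1, Cd68 and Msr1) and 4 below it (Folr2, Aif1, Cx3cr1 and Cd5l). Under a single ratio of cells, with other cells adding an equal amount in both groups, a knockout level would be that ratio of the wild-type level plus a floor. A floor of this kind can only lift a member above the ratio. Of the 4 below the band, Folr2 lay close to its edge (−5.17 against −5.03 for Spi1). Folr2 fell further than the core median (difference −0.68, edgeR adjusted p = 1.12e-05), also in all 17 other fits, but not by more than 1.5-fold (adjusted p = 0.0674). Aif1 and Cx3cr1 rest on few knockout counts. Their differences from the core changed sign on log2(FPKM + 1). There, wild-type levels of 2.79 and 2.5 FPKM leave no room for a fall as large as the core median of −3. On counts, both differed from the core by more than 1.5-fold (edgeR adjusted p = 0.0455 and 0.00052), as did Cd5l (adjusted p = 4.18e-06). Cd5l stayed below the core in all 17 other fits (difference −3.52 to −1.08). For Aif1, the call without a required size was lost without CRE3 or wild-type library 1. The number of members below the common ratio depends on which ratio is taken as common. With the core median, 9 members fell further, with the fold of the summed core level (−4.07) 14 did, and with the median of all tested members (−3.77) 16 did.

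Taken instead at the lowest ratio, 0.863% for Cd5l, a choice made after seeing the data, every other tested member lies above the ratio by arithmetic. From 71.4% (Spi1) to 91.2% (Itgb2) of the knockout level of the core genes would then be floor. For Ptprc that is 1.68 of 2.11 CPM and for Laptm5 5.22 of 6.19 CPM. The Cd5l ratio rests on 18, 6 and 3 counts in CRE1, CRE2 and CRE3, and whether such a floor exists was not tested. The order of the knockout libraries differed by gene: Cd5l was highest in CRE1, and Ptprc and Siglec1 were highest in CRE3. Of the 34 tested members, 12 were highest in CRE1, 13 in CRE2 and 9 in CRE3. The highest knockout library exceeded the lowest by a median of 1.21-fold over tested members with no count of 0, and the highest wild-type library exceeded the lowest by 1.06-fold. Which cells hold the remaining transcripts was not tested. The size of the fall followed the wild-type level only weakly across the 34 members (Pearson r = 0.21, Spearman rho = 0.23 of log2 fold change with wild-type CPM), a description over genes that share the same libraries.

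**Figure D3:**
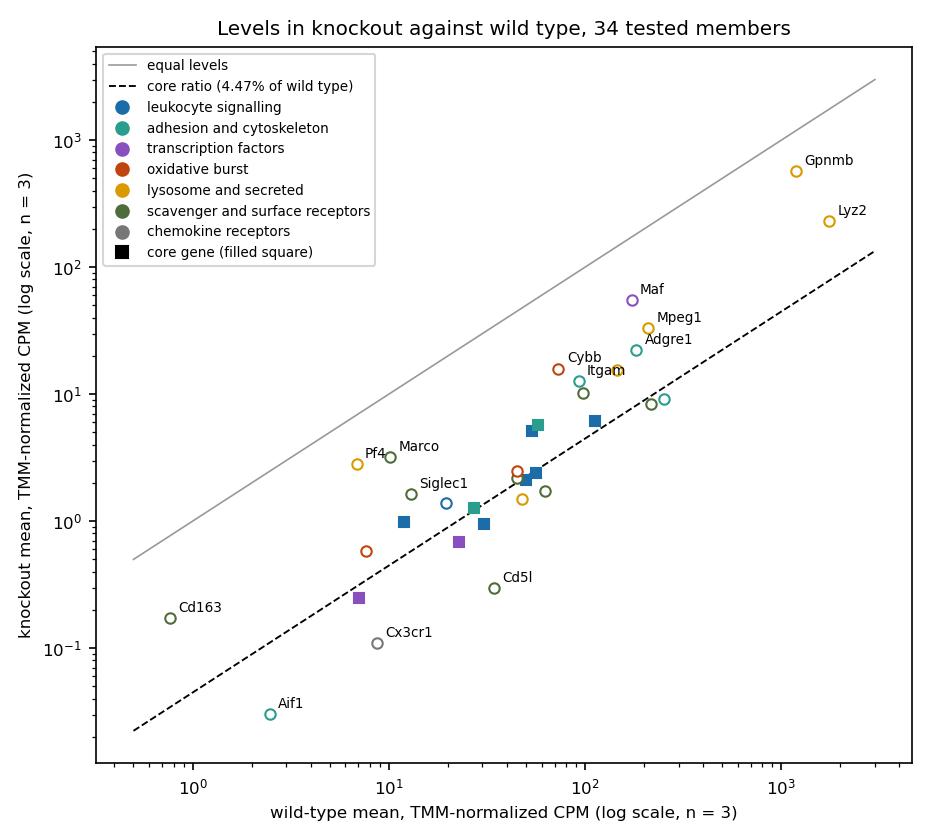
Mean level of the 34 tested members in the knockout (vertical axis) and in the wild type (horizontal axis), both in TMM-normalized CPM on log scales, coloured by role, where core genes are filled squares, the grey line marks equal levels and the dashed line the core ratio of 4.47%. Every gene lies below the grey line, Gpnmb, Pf4 and Maf lie nearest to it, and Cd5l, Cx3cr1 and Aif1 lie farthest below the dashed line among the members under it.

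Other genes of the lineage fell too. Of 30 further macrophage genes on a list that shares no gene with the 39, 29 were tested. That list too was chosen with earlier results of these data known, so it is not independent of them. The fall was called for 28, of which 20 fell at least 8-fold, against 32.1% and 2.8% of all tested genes. The median of the 29 was −3.66 on the log2 scale. Among them, the complement gene C1qc fell from 118 ± 2.1 to 1.92 ± 0.276 CPM (−5.96, SE 0.0732), the cathepsin gene Ctss from 195 ± 4.65 to 15.4 ± 1.07 CPM (−3.66, SE 0.0507) and the inhibitory receptor gene Lilrb4a 11.4-fold, to 17.5 ± 0.808 CPM (−3.51, SE 0.052). Among colony stimulating factors, their receptors and related factors, 9 of 10 tested genes fell. The gene that rose was the granulocyte factor Csf3, with 159, 252 and 177 counts in the knockout against 0, 0 and 5, named after its value was seen. Csf1r, which encodes the growth factor receptor of macrophages, fell 28-fold, from 135 ± 3.99 to 4.82 ± 0.417 CPM (−4.81, SE 0.0621). The macrophage factor gene Irf8 fell as well (−5.02, SE 0.159). The ligand gene Csf1, named outside the rule for this list, changed little, from 786 ± 5.34 to 651 ± 4.88 CPM (−0.27, SE 0.0246).

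For scale beside the counts per list that follow, 32.1% of all tested genes were called lower and 30.7% higher. Lymphocyte, mast cell and dendritic cell markers were scarce in both groups, by the summed level of each list in a library. Lymphocyte genes summed to 0.188 to 0.231 CPM in the wild type and 0.0997 to 0.172 CPM in the knockout, and none of 7 had enough counts for the test. Mast cell genes summed to at most 0.782 CPM and dendritic cell genes to at most 2.46 CPM in any library, and the 1 tested gene of each list fell (Kit −1.73, SE 0.61, and Zbtb46 −1.17, SE 0.244). Neutrophil genes summed to 0.625 to 1.42 CPM in the wild type and 6.98 to 7.69 CPM in the knockout. Of 4 tested, 3 rose and S100a9, the partner of S100a8, was not called (−0.68, SE 0.814, edgeR adjusted p = 0.49). The rises were those of Camp (4.25, SE 0.302), S100a8 (3.50, SE 0.385) and Mmp8 (2.07, SE 0.491), while Mpo, Elane, Ltf and Ly6g had 0 to 2 counts per library. On the monocyte list 4 of 6 tested genes rose and none fell, and most of its summed level of 20527 to 27215 CPM came from Fn1, the fibronectin gene of many cell types. The haptoglobin gene Hp (3.14, SE 0.0303), the coagulation factor gene F13a1 (0.32, SE 0.0567) and Plac8 (1.69, SE 0.37) rose, while Ly6c2 and Chil3 had at most 10 counts in any library. Osteoclasts share the origin of macrophages, and of their 7 tested genes 3 fell and 2 rose. With so few genes, these counts cannot be set apart from the shares over all tested genes. Tnfrsf11a, the receptor RANK, fell 85-fold (−6.43, SE 0.226) and the proton pump subunit gene Atp6v0d2 fell 16-fold (−3.98, SE 0.164). The factor gene Nfatc1 fell by 0.5 on the log2 scale. Named outside the rule for this list, Acp5 (0.62, SE 0.137) and Mmp9 (1.99, SE 0.514) rose. The abundant Ctsk was not called, at 169 ± 2.11 CPM in the wild type and 178 ± 9.27 CPM in the knockout, nor was Oscar. The median of the list was 0.07, and Dcstamp and Ocstamp had at most 8 counts in any library.

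**Figure D4:**
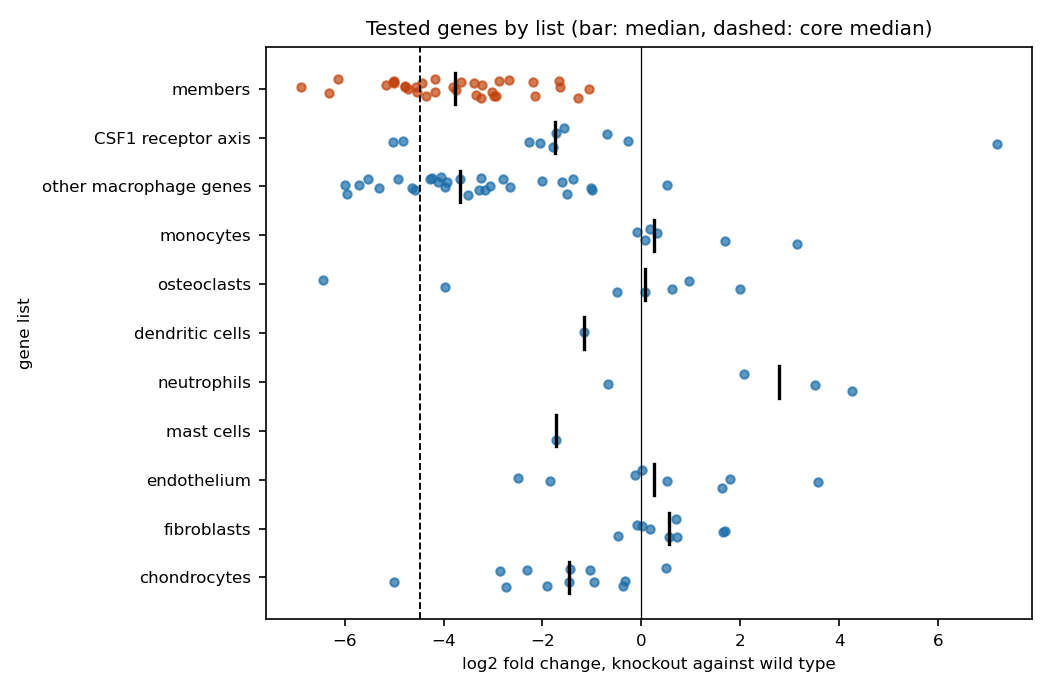
Log2 fold change of each tested gene, knockout against wild type, by list, with a bar at the list's median and a dashed line at the median of the 10 core genes (−4.48). The members (median −3.77) and the other macrophage genes (median −3.66) lie to the left of the other lists, whose medians run from −1.75 to 2.78.

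The labelled cell type and its neighbours moved over the same libraries, in which 32.1% of all tested genes were called lower and 30.7% higher. Chondrocyte markers summed to 8518 to 8708 CPM in the wild type and 2929 to 3054 CPM in the knockout, with 11 of 12 lower and 1 higher (median log2 fold change −1.46). Col2a1 fell from 3397 ± 71.3 to 509 ± 29.0 CPM, Acan fell 7.19-fold and Ucma 4.99-fold. The cartilage matrix gene Matn3, chosen after its value was seen, fell 31.8-fold (−5.01, SE 0.13), a fall as deep as those of Dock2 and Ms4a7 (−5.01 each). Fibroblast markers summed to 15000 to 15132 CPM in the wild type and 24651 to 25398 CPM in the knockout. Of 9 tested, 6 rose, among them Dcn (3.21-fold), Prg4 (3.12-fold) and Col3a1 (1.65-fold), 2 fell, namely Thy1 (−0.47) and Pdgfra (−0.09), and 1 was not called. Endothelial genes, which matter for Lyve1, stayed low, at 8.37 to 10.2 CPM in the wild type and 16.9 to 18.7 CPM in the knockout. Of 8 tested, 3 rose, among them Flt4 (3.57, SE 0.296) and Plvap (1.62, SE 0.191), 2 fell, among them Stab2 (−1.84, SE 0.402), and 3 were not called. These endothelial counts are close to the shares over all tested genes. The part of these cell types in the members' remaining levels was not tested. Mfn2 itself stood at 108, 108 and 106 CPM in the wild type and 64, 56.5 and 59.4 CPM in the knockout (−0.84, SE 0.0461), a smaller fall than any of the 34 tested members. The wild-type libraries held 39267487 to 40152687 counts and the knockout libraries 31481779 to 37814723, and intervals given above cover counting error only.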

How the data were processed

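Total RNA of mouse chondrocytes was sequenced in 6 libraries, 3 per genotype. The authors deposited whole-number read counts per gene symbol and FPKM values, made with fastp, HISAT2 and HTSeq on GRCm39 per the submitters' processing notes. Tool versions, the annotation and the strand setting: not given in the sources used here. For all 12141 genes with at least 30 counts in each library, the deposited FPKM equals the count over the column total and a fixed gene length, within a tolerance of 0.001. Wild-type columns matched sample titles. Knockout columns (CRE1 to CRE3) showed only their group. Same-group libraries had a chi-square per degree of freedom of 3.12 to 7.65, above sampling noise, so each was counted as its own replicate.

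The count test was the quasi-likelihood test of edgeR 4.0.16, run in R 4.3.3 (two-sided, group alone, TMM, filterByExpr with minimum count 10, 15028 genes kept, threshold 0.05, biological coefficient of variation 4.88%). The SE is the log2 fold change over the square root of F. For the test against the core, the knockout libraries were offset by the core's median fold, taken as fixed. P-values were adjusted over all tested genes, of which nearly all differ from that fold, so that adjustment is mild. In simulated counts (14842 genes, knockout against wild type), 8% of 50 genes at the core fold were called, 96% of 50 at a log2 difference of 0.5, and 100% and 98% of 50 each at 1 and −1. The simulated core genes all shared a single fold, unlike the real core, and the genes given set folds had many wild-type counts. These rates were therefore not measured for a core with spread folds or for sparse members such as Aif1 and Cd163. The counting intervals at 95% are exact binomial.

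The members, the core and the other lists (colony stimulating factor axis, other macrophage genes, monocytes, osteoclasts, dendritic cells, neutrophils, lymphocytes, mast cells, endothelium, fibroblasts, chondrocytes) were chosen with earlier results of these data known. Named were the 39 members, Mfn2, Lyz1 and up to 3 genes per list with the smallest p, and some genes of these lists are not reported here. Promoters were those of RefSeq for GRCm38.p6, limited to 250 bases before the start after the table had been seen. Alternatives were limma-voom (limma 3.58.1), DESeq2 1.42.0, other scaling factors, other filters, limma on log2(FPKM + 1) or log2(FPKM + 0.1), each library left out, a block on the column number, and other common folds.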

Additional observations from a re-analysis of the deposited data

How the results depend on the processing

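Over the 17 other fits, 32 to 35 members were called lower and 0 higher, 27 to 29 of the other macrophage genes were called lower, and the 590 recomputed fold changes of single members and Mfn2 kept their direction and their side of the threshold. Leaving out each library in turn gave 34 members lower in each case, a core median of −4.55 to −4.38, 28 to 30 members that differed from it, 8 to 10 that fell further, and 4396 to 4774 genes lower and 4264 to 4773 higher over the whole table. The replicate block on the number that ends each column name gave 34 members lower and 29 that differed from the core. The numbers were not taken as pairs, since same-numbered libraries had deviations that correlated at −0.12, 0.077 and −0.13 across genes. With total counts alone, 7627 genes were lower and 2789 higher, and all tested genes had a median of −0.23 on the log2 scale. On log2(FPKM + 1) the core median was −3 where genes under a mean FPKM of 1 were left out and −2.99 where all were kept, and 14 members fell further than it in each case. The added 1 exceeds the knockout FPKM of many members and compresses their folds. In these fits the numbers of genes higher over the whole table were 2354 and 2706, with 7328 lower in the second, and on log2(FPKM + 0.1) 2345 were higher. Differences from the core changed sign on log2(FPKM + 1) for Laptm5 −0.93 with the filter and −0.94 without, Cd52 −0.59 with the filter and −0.59 without, Dock2 0.72 with the filter and 0.58 without, Aif1 1.12 with the filter and 1.11 without, Adgre1 −0.06 with the filter and −0.06 without, Ncf1 −0.35 with the filter and −0.35 without, Lyz2 −0.14 with the filter and −0.15 without, Cd68 −0.33 with the filter and −0.34 without, Cx3cr1 1.23 with the filter and 1.22 without. In addition Cd53 changed to −0.02 without the filter, and on log2(FPKM + 0.1) Cx3cr1 stood at 0.08, while Laptm5 (0.09), Dock2 (−0.06), Aif1 (−0.06) and Ncf1 (0.18) were no longer called there. With the common fold from the summed core (−4.07) or from the median of tested members (−3.77), 14 and 16 members fell further. A required difference of over 1.5-fold left 19 members that differed and 3 that fell further. The cause of the other changes was not tested. Depth limits Aif1, Cx3cr1, Cd163 and the 5 untested members, which rest on few counts.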
